A study of Homo sapiens with 2 samples.

Results

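The 7 genes examined here encode the core of the MYC network: MYC, MYCL and MYCN, their partner MAX, and the antagonists MXD1, MXI1 and MNT. They were chosen by name, and a PRDM1 peak was assigned to a gene when its summit lay in the gene body or within 50 kb of it. By that rule 1 of the 9669 peaks of the complete list was assigned to the network. It lay near MXD1, and the other 6 genes had none.

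PRDM1, or BLIMP-1, is the zinc finger repressor under which B cells turn into plasma cells. The data came from U266, an established multiple myeloma cell line, and consisted of 1 library immunoprecipitated with the rabbit monoclonal antibody C14A4 against PRDM1 and 1 library of input DNA without antibody. No agent or genotype is named for either library, and the labels call the cells a plasma cell lymphoma. There was no replicate, so no test between conditions was possible and intervals cover counting error only. The libraries kept 7854466 and 8556458 tags after duplicates were removed, a mean of 2.91 and 3.17 tags per kb of effective genome. Peak positions are given on GRCh37, which is taken as the build of the peak lists because the gene positions in the assignment rule use it and no build is given in the sources used here. RNA levels of the genes were not analysed here.

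MYC proteins are transcription factors that bind DNA as dimers with MAX, at E-box elements, and switch on genes of growth and cell division. MXD1, MXI1 and MNT also pair with MAX, bind the same elements and recruit corepressors, so they oppose MYC. MYC itself is a known PRDM1 target: its repression is part of the exit from the cell cycle when B cells become plasma cells, and in myeloma it is often switched on again by rearrangement.

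Start regions of 3 of the genes are shown because no PRDM1 peak reached them: MXD1, the gene with the assigned peak; MYCN, whose region has the most copies of the PRDM1 core; and MNT, whose region has an E-box. Each is the 250 bases before a RefSeq start site, 5′ to 3′ on the strand of the gene, on build GRCh38.p14, with positions that cannot be set beside the peak positions given later on GRCh37. The regions are chr2:69914859-69915108 on the plus strand for MXD1, chr2:15940300-15940549 on the plus strand for MYCN and chr17:2401061-2401310 on the minus strand for MNT. Capitals mark GAAAG, the core that PRDM1 recognises, its longer form GNGAAAG, which contains the core, and the E-box CACGTG, on either strand.
MXD1: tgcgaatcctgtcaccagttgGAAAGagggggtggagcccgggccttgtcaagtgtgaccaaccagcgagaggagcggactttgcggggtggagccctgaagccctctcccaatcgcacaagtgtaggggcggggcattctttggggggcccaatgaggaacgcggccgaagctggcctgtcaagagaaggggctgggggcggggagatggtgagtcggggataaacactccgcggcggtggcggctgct
MYCN: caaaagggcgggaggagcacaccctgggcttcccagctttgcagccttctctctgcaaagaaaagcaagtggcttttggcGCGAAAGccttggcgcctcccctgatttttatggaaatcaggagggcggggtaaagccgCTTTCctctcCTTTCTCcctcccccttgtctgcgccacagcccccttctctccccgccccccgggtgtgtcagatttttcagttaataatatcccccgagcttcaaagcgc
MNT: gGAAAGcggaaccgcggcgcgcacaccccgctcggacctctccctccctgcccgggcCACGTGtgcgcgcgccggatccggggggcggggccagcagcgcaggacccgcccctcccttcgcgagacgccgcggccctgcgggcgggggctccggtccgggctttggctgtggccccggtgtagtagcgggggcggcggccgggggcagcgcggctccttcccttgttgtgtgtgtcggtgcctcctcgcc

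The MXD1 region held 1 core, starting 229 bases before the start site. The MYCN region held 3, starting 168, 111 and 101 bases before it, 1 on the strand shown and 2 on the other, and 2 of them had the longer form. The MNT region held 1 core at 249 bases and the E-box at 193 bases. The core is short and common: 48.9% of the 35116 start regions in the RefSeq table hold it on either strand, 19.4% hold the longer form and 6.34% hold the E-box. Of the 9 regions listed for the network, 4 held the core, 1 the longer form and 1 the E-box. MXI1 has 3 listed start regions, of which 1 held the core, and neither the 2 regions of MAX nor the region of MYCL held any. MYC has no entry in the table. A match in these letters is a description and does not show a bound site.

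In the peak list, no summit fell inside the body of any of the 7 genes, and none fell within 20 kb of one, a distance at which 18.7% of adjoining windows of the mean width, 74 kb, hold a summit genome-wide. At the 50 kb rule 14.3% of the genes had a peak. As background, the chromosomes were cut into adjoining windows of 134 kb, the mean width of the 7 gene windows, and 29.9% of those 22679 windows held at least 1 summit. The 7 windows together covered 940 kb, where the mean density of the list would give 2.99 peaks and the density of each gene's own chromosome 3.22. The observed count was 1. These are densities over all sequence up to the last peak of each chromosome, without regard to genes, and the difference was not tested.

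**Figure D1:**
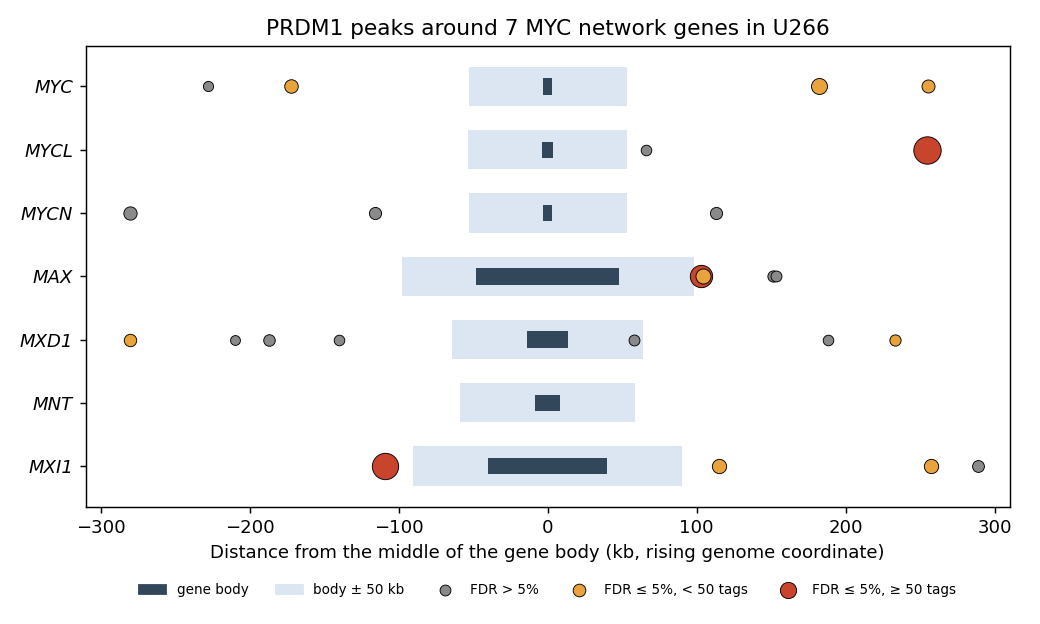
Peaks of the complete list around each gene, by distance in kb from the middle of the gene body along rising genome coordinate; dark bars are gene bodies, pale bars the 50 kb limits, and dot area rises with the tag count. Grey dots have a false discovery rate (FDR) above 5%, orange dots pass it with under 50 tags and red dots pass both limits. The MXD1 row has the single dot on a pale bar, and the red dots of MAX and MXI1 lie outside their bars.

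MXD1, the antagonist that accumulates as many cell types differentiate, had the assigned peak. It ran on chromosome 2 from 70213860 to 70214510, 44.3 kb past the 3′ end of the gene body (70142 to 70170 kb) and 72.3 kb from its start. In the RefSeq gene order, the next protein-coding genes on that side of MXD1 are ASPRV1 and PCBP1, so the peak is not tied to MXD1 by more than distance. It held 12 tags where 2.15 were expected from the input. After the tags were scaled by 1.09 to the size of the input library and rounded down, as for every such ratio given here, this was 6.05 times the expected number (exact 95% Poisson interval 3.13 to 10.6, counting error of the tags only). The median was 5.54 over the whole list and 10.4 over the filtered list. The input background there was 1.04 times the genome mean.

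The MXD1 peak failed both limits that the authors used for their filtered list, 50 tags or more and an FDR no higher than 5%. The FDR is the number of calls with ChIP and input swapped over the number of ChIP calls, both counted at the same score or higher. Its FDR was 9.12% and its score, a multiple of −log10 p, was 71.58, which ranks 5046 in the list. Among all 1137 peaks with 12 tags, 95 (8.36%) passed the FDR limit. Over the complete list 43.5% of peaks passed that limit and 9.17% passed both. No peak within 50 kb of a network gene passed either limit.

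On the 5′ side of MXD1 the nearest peak lay 126 kb away and held 11 tags at an FDR of 33.42%. The nearest peak of the filtered list lay 1177 kb from the gene body. Weak peaks therefore lay on both sides of MXD1 and no strong one lay near it.

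MAX, the partner that the other members share, had a peak just beyond the limit. Among the 6 peaks within 100 kb of a member, it had the highest score, fold and ratio to expected. A peak near MXI1 held more tags. The MAX peak lay on chromosome 14 from 65623079 to 65624059, 54.6 kb upstream of the gene body (65473 to 65569 kb). It was thus just too far to be assigned. It held 65 tags where 3.11 were expected, 22.5 times as many (17.4 to 28.7). Its fold at the summit, the authors' ratio of summit height to background, was 50.49, and its FDR was 0%. It passed the authors' limits, and 42 filtered peaks (4.75%), itself included, had as high a ratio of tags to expected. Its solved background was the genome mean of 3.17 tags per kb, taken here as the lowest that the caller uses. If so, the local input lay at or below that mean. The floor was not exact in the solved values, since 45 of 9667 peaks fell below it.

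A second peak lay beside it, 518 bp from edge to edge and 1396 bp from summit to summit. It ran from 65624578 to 65625655 with 27 tags, 8.49 times the expected number (5.59 to 12.4), at an FDR of 0.12%. The intervals of the pair do not overlap, so the peak nearer to MAX was the stronger per expected tag. Farther upstream, 103 and 105 kb from MAX, lay another pair with 13 and 12 tags and FDR values of 6.81% and 37.88%. The next protein-coding gene on this side of MAX in RefSeq order is FUT8, a fucosyltransferase. On the other side of MAX no peak was called for 1207 kb. The stretch between the neighbouring summits, 1357 kb with MAX inside, was the longest of the 7 genes.

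MXI1, an antagonist of the MXD family, lay between a strong and a weak peak, each outside the 50 kb limit. The upstream peak lay on chromosome 10 from 111896964 to 111899123, 68.9 kb before the gene body (111967 to 112047 kb). It held 92 tags, 7.69 times the 13 expected (6.2 to 9.43), at a fold of 24.09 and an FDR of 0%. More tags than at MAX thus stood on a higher input background, 1.9 times the genome mean, and over a longer peak, 2160 bp against 981 bp. The ratio was lower, with an interval that does not overlap that of the stronger MAX peak. The protein-coding gene next to MXI1 on this side in RefSeq order is ADD3, an adducin of the cell cortex. Downstream, 74.7 kb past the gene, a peak of 24 tags reached 3.66 times the expected number (2.35 to 5.45) at an FDR of 4.91%, just inside the FDR limit.

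**Figure D2:**
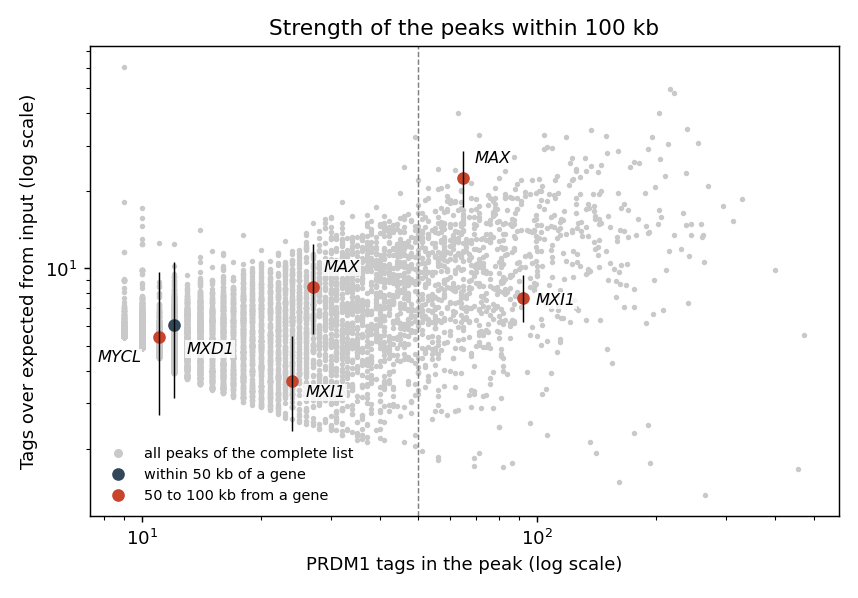
Tags in each peak against tags over the number expected from input, both on log scales; grey points are all peaks with a recovered background, and coloured points the 6 peaks within 100 kb of a network gene with exact 95% Poisson intervals on the tags. The dashed line marks 50 tags. The stronger MAX peak lies high for its tag count at 22.5, while the MXD1 peak at 6.05 sits among the weak peaks that make up most of the list.

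MYC, the founding member, had the nearest peaks on either side well away from the gene body (chromosome 8, 128748 to 128754 kb). The lower one lay 169 kb away, from 128579053 to 128579645, with 21 tags, 9.27 times the expected number (5.74 to 14.2), and an FDR of 0.15%. The higher one, 179 kb away on the side of the noncoding gene PVT1, ran from 128932831 to 128934030 with 31 tags, 5.09 times the expected number (3.46 to 7.23), and an FDR of 0.27%. Both passed the FDR limit and neither reached 50 tags. Farther out lay a peak of 10 tags at 225 kb (FDR 28.04%) and one of 19 tags at 252 kb (FDR 3.39%). The nearest filtered peak lay 2644 kb from the gene. MYC is the member best known as a PRDM1 target, and in this library no peak was called at it or closer than 169 kb.

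MYCL, the paralogue first found in lung cancer, had 1 weak peak 62.5 kb upstream of its body (chromosome 1, 40361 to 40368 kb). That peak ran from 40430192 to 40430697 and held 11 tags, 5.43 times the expected number (2.71 to 9.72), at an FDR of 28.99%. A filtered peak lay 251 kb upstream, from 40617686 to 40619591, where 100 tags were counted, a ratio to expected of 9.44 (7.68 to 11.5). On the downstream side the first peak was 702 kb away, with 29 tags. MFSD2A and CAP1 are the next protein-coding genes upstream of MYCL in RefSeq order.

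MYCN, the paralogue amplified in neuroblastoma, lay midway between 2 weak peaks (gene body on chromosome 2, 16081 to 16087 kb). The upstream one was 113 kb away and ran from 15967411 to 15968198. The downstream one was 110 kb away and ran from 16196254 to 16196958. Each held 16 tags, at 4.79 (2.74 to 7.78) and 3.89 (2.22 to 6.32) times the expected number, and FDR values of 8.07% and 24.06%. Their intervals overlap widely, so the flanks were not distinguishable in strength.

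MNT, the antagonist present in cycling and resting cells alike, was the farthest from any peak (chromosome 17, 2287 to 2304 kb). The upstream neighbour was 360 kb away with 12 tags and an FDR of 12.61%. The downstream neighbour was 487 kb away with 19 tags and an FDR of 0.55%. No filtered peak lay between the start of the chromosome and MNT, and the first one beyond it was 5215 kb away. This was so on a chromosome with 4.37 peaks per Mb, more than the 3.18 of the genome and the highest of the 6 chromosomes that carry the network.

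By distance to the nearest summit the genes ranked MXD1 (44.3 kb), MAX (54.6), MYCL (62.5), MXI1 (68.9), MYCN (110), MYC (169) and MNT (360). The antagonists thus stood at both ends of the order, and the 3 MYC genes did not stand together. By distance to the nearest filtered peak the order was MAX (54.6 kb), MXI1 (68.9), MYCL (251), MYCN (425), MXD1 (1177), MYC (2644) and MNT (5215). MXD1, first by any peak, fell behind MAX, MXI1, MYCL and MYCN by filtered peaks.

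**Figure D3:**
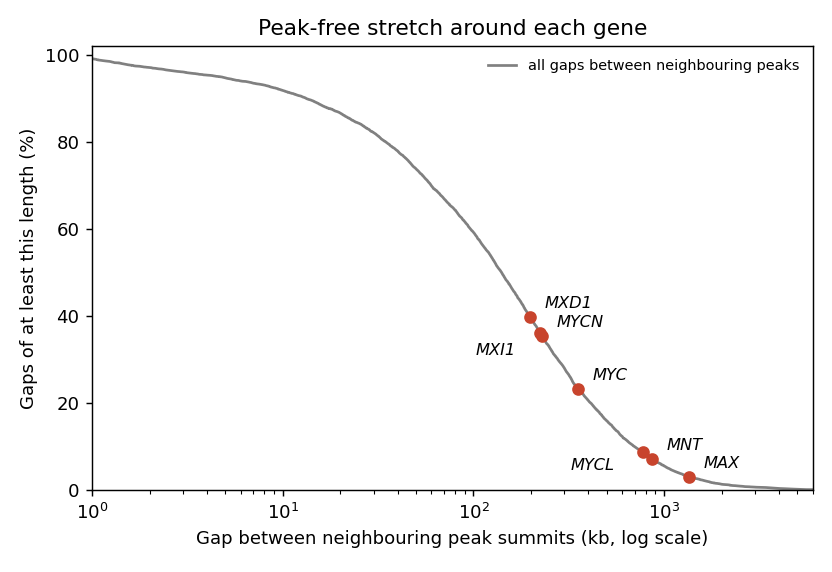
For every length on the x axis (kb, log scale), the percentage of the 9645 gaps between neighbouring summits that are at least as long; red points mark the gap that holds each network gene. All 7 points lie to the right of the median gap of 140 kb, from 198 kb at MXD1 to 1357 kb at MAX. At MAX and MXI1 the empty gene window alone, 196 and 180 kb wide, puts the gap above that median.

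The peak-free stretch that held each gene was longer than the median gap of 140 kb in all 7 cases. It was 198 kb at MXD1, 224 kb at MXI1, 229 kb at MYCN, 354 kb at MYC, 771 kb at MYCL, 864 kb at MNT and 1357 kb at MAX. Part of this restates the 50 kb result, since a gap around an empty gene window cannot be shorter than the window. That window was 196 kb at MAX and 180 kb at MXI1, already above the median gap. At MYC, MYCL, MYCN and MNT it was 106 to 117 kb, below the median gap. Long gaps also take up most of the sequence, so a point in the genome is more likely to fall in a long one. Gaps as long as that of MXD1 took up 85.5% of the spanned length, those as long as that of MYC 71%, and those as long as that of MAX 27.7%. Read by length, the gaps of MXD1, MXI1 and MYCN were therefore common ones, and that of MAX the least common of the 7.

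**Figure D4:**
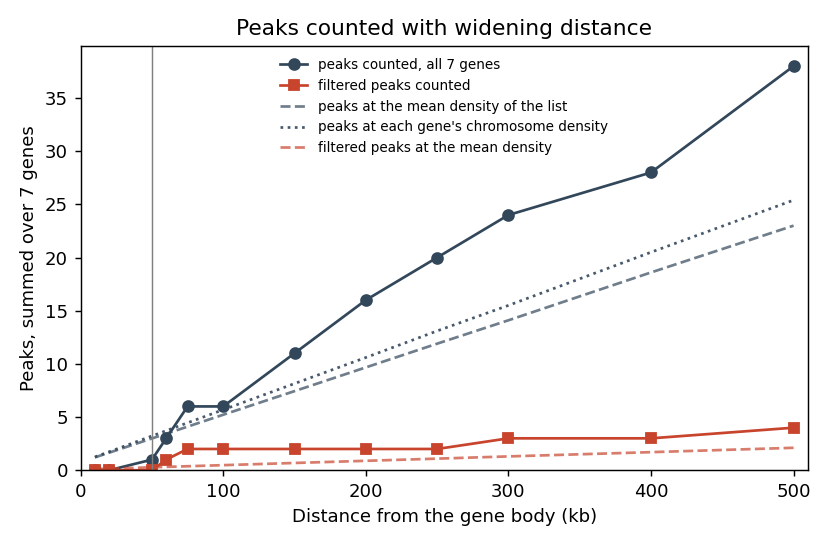
Peaks (circles) and filtered peaks (squares) summed over the 7 genes against the distance allowed from the gene body in kb; dashed and dotted lines give the number at the mean density of the list and of each gene's chromosome, and the vertical line marks 50 kb. The circles lie under the lines up to 50 kb, with 1 peak against 2.99, and above them from 75 kb on.

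Widening the distance changed the picture. At 75 kb 6 peaks and 4 genes were counted (MYCL, MAX, MXD1 and MXI1), and the numbers were the same at 100 kb, against 5.22 and 5.69 peaks at the genome and chromosome densities. Genome-wide, 37.2% of windows of 184 kb, the mean width at 75 kb, and 43.2% of windows of 234 kb, the mean width at 100 kb, held a summit. Of those 6 peaks, 4 passed the FDR limit, which 43.5% of all peaks pass, and 2, at MAX and MXI1, passed both limits, which 9.17% of all peaks pass. Windows of 234 kb held a filtered peak in 6.06% of cases. At 250 kb there were 20 peaks against 11.9 and 13.1, and 6 genes had one, where 64.6% of windows of 534 kb hold one genome-wide. At 500 kb all 7 genes had one, where 79.2% of windows of 1034 kb do, with 38 peaks against 23 and 25.4. By gene, the 20 peaks within 250 kb were 6 at MXD1, 4 at MAX, 4 at MXI1, 3 at MYC, 2 at MYCN, 1 at MYCL and 0 at MNT. The windows differ in width and the chromosomes in peak density, and the spread over the genes was not tested. Summed over the genes, the count within 50 kb was thus under the mean density and the counts from 75 kb on were over it. At 60 kb, where the MAX pair is reached, the count was 3 against 3.43 and 3.72. At 100 kb it was only slightly over the 2 densities. Neither difference was tested, and the sums do not describe each gene.

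The depth limits what an empty window shows. The lists count tags in called peaks, and the peaks with the fewest held 9 tags, so occupancy below that level was not detectable at this depth. Where the background was higher, 9 tags did not suffice. A peak 277 kb from MYCN, at 1.83 times the mean background, held 20 tags and scored 60.21. The lowest score of any peak was 50.01. A gene without a peak within 50 kb is therefore one without a called peak, which is not the same as one without PRDM1.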

How the data were processed

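Peaks were called with MACS 1.4.1 on merged alignments of the PRDM1 and input libraries, with a p cutoff of 1e-05 and a fragment size of 200 bp, per the file headers. CASAVA 1.8.2 and Bowtie 0.12.7 are named in the submitters' processing notes. The tag counts per peak are raw counts without duplicates, per the file headers. The score is −log10 p multiplied by 10, as the authors deposited it. The fold is the deposited ratio of summit height to local background, and the FDR percent is that of the authors' caller. The build is not given in the sources used here and was taken as GRCh37, as in the rule for the genes. Gene bodies were given in whole kb.

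Summits were assigned to genes by distance in Python 3.11.15 with pandas 2.3.3. Expected tags were solved with SciPy 1.17.1 from each score, with tags scaled by the library ratio of 1.09 and rounded down, for 9667 peaks. The solving was tested on simulated data whose scores came from the same formula. That test cannot show whether the formula is the caller's own. For 45 of the 9667 peaks the solved background fell below the genome mean. All 7 genes, each peak in a gene window and the nearest peaks on both sides were described; peaks farther out were added after their values were seen. The members and lists were chosen with earlier results of these data known. No test between conditions was made. Gene names and order came from RefSeq on GRCh38.p14, where all 7 symbols matched, and 6 of 7 genes matched a start region. Other genes of the network had no position on GRCh37 and were not analysed here. The peak list was also counted at other distances and limits.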

Additional observations from a re-analysis of the deposited data

How the results depend on the processing

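The count of 1 peak, at 1 gene, depends on the distance. It was 0 peaks at 0 genes within 10 kb and within 20 kb, 6 peaks at 4 genes within 100 kb and 20 peaks at 6 genes within 250 kb. It was also 0 at an FDR of at most 5%, in the filtered list, and within 50 kb of the start site of 6 genes. MYC was left out of the start-site count because it has no listed start region. The peak count stayed at 1 with any overlap of the peak region and at an FDR of at most 20%. It also stayed at 1 with gene ends moved by 1 kb either way. The count of filtered peaks was 0 within 50 kb and 2 within 100 kb and within 250 kb. Within 50 kb it was also 0 at an FDR of at most 1%, at 25 tags and at 100 tags. No peak there passed the 5% FDR limit, so those settings could not give any other count. Tags over expected at the MXD1 peak were 6.05, 6.05 with tags rounded to the nearest and 6.61 unscaled. The 250 kb distance, the moved ends, the start sites and the wider filtered counts were chosen after seeing the data. The only other distances planned were 10, 20 and 100 kb, so the counts at 60, 75 and 500 kb were not planned either. No paired analysis was possible because each kind of library had a single sample.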
